A study of Mus musculus with 29 samples.

Results

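Binding of the glucocorticoid receptor (GR) and of C/EBPβ was described at 3 mouse genes of liver glucose output, Pck1, G6pc and Ppargc1a. The members are all listed features with their centre in a fixed window of the mm9 build around each gene: chromosome 2 from 172.93 to 173.04 Mb for Pck1, chromosome 11 from 101.18 to 101.29 Mb for G6pc, and chromosome 5 from 51.79 to 52.00 Mb for Ppargc1a. The windows held 140 of 107997 ChIP-seq peaks and 798 of 255667 ChIP-exo borders, which made 556 features at Pck1, 327 at G6pc and 55 at Ppargc1a. Within the windows, members were drawn by position alone. The genes and lists themselves were chosen with earlier results of these data known.

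The livers came from 12-week-old male mice on a background of at least 4 back-crosses to BALB/c, kept in light and dark phases of 12 h. WT animals (GR+/+) were litter mates of GRdim animals, whose receptor carries a mutation known to impair dimerization of GR. Untreated livers were collected at 6am, when the light phase began, and at 6pm, when the dark phase began. The treated group of each genotype was collected at 6am after 24 h of the synthetic glucocorticoid prednisolone (12 mg/kg), released by pellets under the skin. All 6 groups had GR profiles of both kinds, ChIP-seq and ChIP-exo. The latter adds an exonuclease that digests each precipitated fragment as far as the bound protein. C/EBPβ, a transcription factor abundant in hepatocytes, was profiled by ChIP-seq in the 3 WT groups. Every list was 1 pool of 2 replicates, so no spread between animals is available and no p-value is given. Whole liver was used, and fewer bound cells cannot be told apart from weaker binding in each cell.

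Pck1 encodes the cytosolic phosphoenolpyruvate carboxykinase, which commits oxaloacetate to new glucose. G6pc encodes the catalytic subunit of glucose-6-phosphatase, which releases glucose from the hepatocyte at the last step. Ppargc1a encodes PGC-1α, a coactivator that fasting induces in liver and that raises the transcription of both enzymes. Glucocorticoids, glucagon acting through cAMP, and C/EBP factors are known to raise Pck1 and G6pc transcription, and insulin lowers it. In the GRCm38.p6 order of protein-coding genes, Pck1 lies between Ctcfl and Zbp1, G6pc between Aoc3 and Aarsd1, and Ppargc1a between Adgra3 and Dhx15.

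The promoters of the 2 enzymes are shown because their cAMP and glucocorticoid inputs are the classical case of liver gene control. Each sequence is the 250 bases before the RefSeq start in GRCm38.p6, from 5′ to 3′ on the plus strand, at chr2:173152823-173153072 for Pck1 and chr11:101367466-101367715 for G6pc. Capitals mark the only exact match to 6 motifs searched on both strands.

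Pck1: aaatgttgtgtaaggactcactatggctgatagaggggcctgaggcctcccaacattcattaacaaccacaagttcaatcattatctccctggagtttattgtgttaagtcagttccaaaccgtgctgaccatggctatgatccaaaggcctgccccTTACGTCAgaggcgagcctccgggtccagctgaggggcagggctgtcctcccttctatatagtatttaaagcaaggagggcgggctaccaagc

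G6pc: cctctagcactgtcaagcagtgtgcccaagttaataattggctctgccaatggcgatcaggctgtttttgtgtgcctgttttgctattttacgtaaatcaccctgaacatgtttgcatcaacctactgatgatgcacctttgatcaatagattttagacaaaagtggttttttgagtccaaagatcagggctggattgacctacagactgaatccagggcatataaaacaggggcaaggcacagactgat

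The Pck1 match is TTACGTCA, a form of the cAMP response element, and it begins 93 bases before the start (position -93). The same letters on either strand were found in 0.448% of 32851 promoters of that length. No match to TGACGTCA (1.55% of promoters), to the GR letters AGAACA (16.1%), to the inverted repeat of those letters with 3 free bases between (0.00913%), to the C/EBP letters TTGCNNAA (9.56%) or to the forkhead letters TGTTTAC (3.17%) was found in the promoters of Pck1, G6pc or Ppargc1a. Every match to the inverted repeat also holds AGAACA. These letters come from the C57BL/6J reference, and coordinates of the 2 builds were not joined, so which listed peak covers a promoter was not analysed here.

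GR was listed more often at the enzyme genes than at Ppargc1a. The mean number of GR peaks in windows of these widths over the genome was not counted, so the counts compare the windows alone. The 6 GR lists together held 30 peaks in the Pck1 window, 31 in the G6pc window and 6 in the Ppargc1a window, which is also the widest at 210 kb against 110 kb for each of the others. By list, the Pck1 window held 5 GR peaks at 6am, 9 at 6pm and 3 under prednisolone in WT, and 4, 5 and 4 in GRdim. The G6pc window held 6, 8 and 4 in WT and 3, 7 and 3 in GRdim. In the Ppargc1a window no GR peak was listed at 6am in either genotype, 3 in WT and 2 in GRdim were listed at 6pm, and 1 in WT and none in GRdim after prednisolone.

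**Figure D1:**
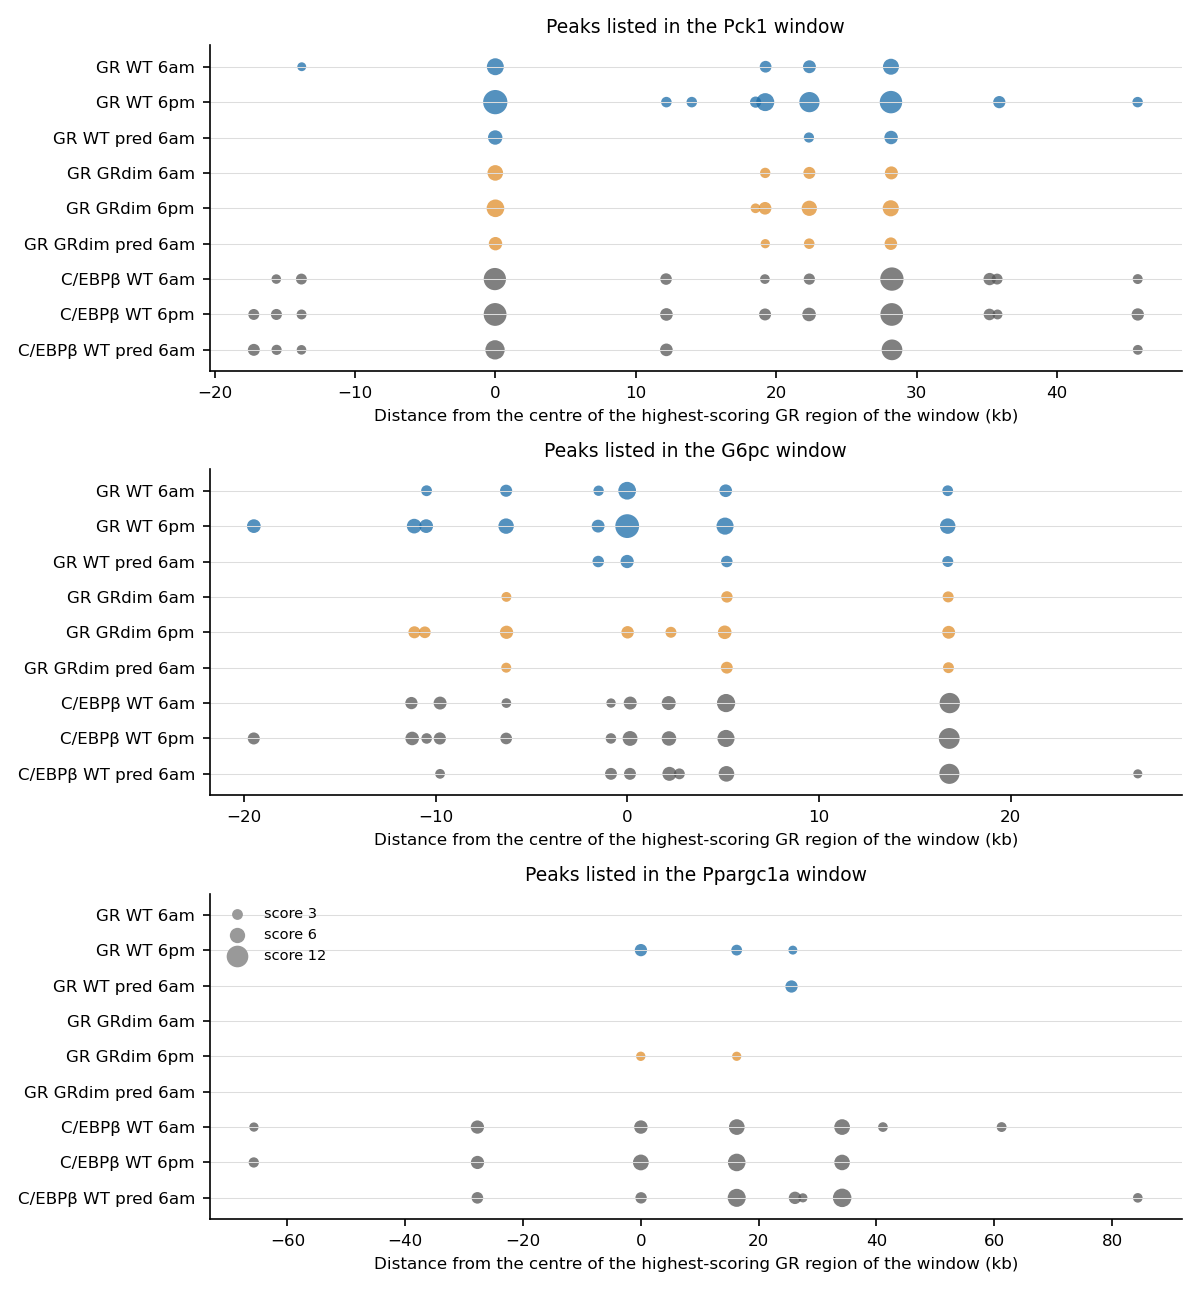
Peaks in the 3 windows by list. The x axis is the distance in kb from the highest-scoring GR region of each window, each row is 1 list, and the area of a circle is the authors' score; circles of GR in WT are blue, of GR in GRdim orange and of C/EBPβ grey. GR peaks of all 6 lists fall together at 3 positions of Pck1 and 2 of G6pc, other positions of these windows hold a peak in fewer lists, and the 6 Ppargc1a peaks fall at 4 positions.

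GR peaks that overlapped by at least 1 bp were merged into regions, 10 at Pck1, 9 at G6pc and 4 at Ppargc1a. Of these 23 regions, 13 (56.5%, exact binomial 95% interval 34.5 to 76.8) were listed in both genotypes, against 48.4% of all 15329 GR regions. In WT alone 9 were listed, where 48.6% of all regions were, and in GRdim alone 1, where 3.09% were. All 6 lists held 5 of the 23 regions, 3 at Pck1 and 2 at G6pc, against 10.1% of all regions. Just 1 list held 9 of the 23, against 40.7%. The share in both genotypes lay within counting error of that over all regions. Intervals here and below cover counting only.

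Pck1 had 3 regions in every GR list, in a fixed order of score. The score is the authors' own value per peak, no lower than 2 in any list. Its unit is not stated in the labels or files, so it is read within a list, and a missing peak may be one that scored lower. The highest-scoring region of the window in each of the 6 lists was chr2:172949956-172950176. Its score was 7.35 in WT at 6am, 15.09 at 6pm and 5.33 under prednisolone, and 6.22, 7.97 and 4.61 in GRdim. These scores ranked 322 of 5781, 125 of 14270 and 661 of 4304 in the WT lists, and 101 of 3183, 99 of 7440 and 197 of 3208 in the GRdim lists. In the same 6 lists the region was thus within the first 15.4% of peaks.

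The next in score was chr2:172978128-172978372, which lay 28.2 kb further along. It scored 6.55 at 6am, 12.9 at 6pm and 4.65 under prednisolone in WT, and 4.34, 6.67 and 4.05 in GRdim. Between them, chr2:172972300-172972536 scored 4.26, 10.49 and 2.66 in WT and 3.69, 5.97 and 2.86 in GRdim. The order of these 3 regions was the same in all 6 lists. The region chr2:172969176-172969413 came below them in each of the 5 lists that held it, with 3.54 and 8.29 in WT at 6am and 6pm and 2.75, 4.11 and 2.19 in GRdim. It was missing from the WT prednisolone list.

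Away from these 4 regions, GR peaks at Pck1 were few and scored low. The region chr2:172968496-172968700 was listed at 6pm in both genotypes, with 3.22 in WT and 2.42 in GRdim. The other 5 regions were each in 1 WT list, 4 of them at 6pm with scores of 2.81 to 3.84 and 1 at 6am with 2.02. The highest-scoring of them was chr2:172985859-172986058.

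G6pc differed from Pck1 in that the region with the highest score was not the same in the genotypes. In all 3 WT lists that region was chr11:101223617-101223840, with 8.07 at 6am, 14.51 at 6pm and 4.50 after prednisolone. These ranked 258 of 5781, 154 of 14270 and 942 of 4304. In GRdim it was listed at 6pm alone, with a score of 3.97 at rank 1674 of 7440, below 3 other G6pc peaks of that list. The highest-scoring G6pc region in all 3 GRdim lists was instead chr11:101228710-101229024, with 3.33, 4.74 and 3.61. In WT it scored 4.11, 7.49 and 3.38.

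A second G6pc region, chr11:101222104-101222327, was held by each of the WT lists and by none from GRdim. Its WT scores were 2.74 at 6am, 4.24 at 6pm and 3.38 after prednisolone, and its centre lay 1.51 kb from that of the leading WT region. The region chr11:101240347-101240597 was in all 6 lists, with 2.97, 6.14 and 3.08 in WT and 3.11, 4.25 and 3.05 in GRdim. The region chr11:101217300-101217522 was in every list but that of WT after prednisolone, with 3.77 and 6.10 in WT and 2.50, 4.50 and 2.56 in GRdim.

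The other G6pc regions were listed in untreated livers. The region chr11:101213059-101213349 scored 3.01 and 4.82 in WT at 6am and 6pm and 3.51 in GRdim at 6pm. The region chr11:101212503-101212714 was listed at 6pm alone, with 5.52 in WT and 3.72 in GRdim. Both remaining regions were in 1 list, chr11:101204135-101204334 in WT at 6pm with 4.82 and chr11:101225903-101226102 in GRdim at 6pm with 3.09.

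Ppargc1a, the coactivator gene, had 4 regions, and those of 6pm were apart from that of prednisolone. At 6pm both genotypes held chr5:51902822-51903049, with 3.87 in WT and 2.25 in GRdim, and chr5:51919104-51919306, with 3.00 and 2.18. The ranks of these 4 scores lay between 38.8% and 85.3% from the top of their lists. The region chr5:51928352-51928551 was listed in WT after prednisolone alone, with 3.87 at rank 1255 of 4304. It was chosen for description after its values were seen. The neighbouring WT peak of 6pm, chr5:51928640-51928839, did not overlap it and scored 2.05.

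Across the 3 windows, most peaks of either genotype were also listed in the other. Of the WT peaks, 4 of 11 at 6am, 7 of 20 at 6pm and 3 of 8 after prednisolone were not listed in GRdim, against 52.5%, 50.6% and 51.5% of all WT peaks. Of the GRdim peaks, 0 of 7, 1 of 14 and 2 of 7 were not listed in WT, against 13.8%, 5.34% and 34.9%. The intervals of all 6 window shares held the share over the whole list. The 2 GRdim peaks absent from WT after prednisolone were the Pck1 region at 172969176 and the G6pc region at 101217300.

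The lists of 6pm added peaks at all 3 genes. Of the WT peaks of 6pm, 10 of 20 were absent at 6am, 5 at Pck1, 2 at G6pc and 3 at Ppargc1a, against 60.5% of the whole list. In GRdim 7 of 14 were absent at 6am, against 60.2%. In the other direction 1 of 11 WT peaks of 6am was absent at 6pm, against 2.49%. After prednisolone 4 of 11 WT peaks of 6am were gone, against 44.8%, and 1 of 8 prednisolone peaks was new, against 25.8%. The new peak was that of Ppargc1a, and each enzyme gene lost 2 peaks and gained none. In GRdim the 7 peaks of 6am and the 7 of prednisolone lay at the same places, with 0 of 7 lost and 0 of 7 new, against 35.2% and 35.7% of all GRdim peaks. Each of these shares lay within counting error of that of its whole list. The exact interval for 0 of 7 reaches up to 41.0%, so it excludes little.

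C/EBPβ was listed at most GR peaks of the enzyme genes. Its lists held more peaks than those of WT GR in all 3 windows and conditions, and were also longer as a whole, with 21644 against 5781 peaks at 6am. In the 3 windows 9 of 11 WT GR peaks at 6am, 16 of 20 at 6pm and 5 of 8 after prednisolone overlapped C/EBPβ in the matching list. Over the whole lists these shares were 79.7%, 83.2% and 75.7%, all inside the exact intervals of the window shares (48.2 to 97.7, 56.3 to 94.3 and 24.5 to 91.5). Of the C/EBPβ peaks in the windows, 9 of 25, 16 of 26 and 5 of 22 overlapped a WT GR peak, against 21.3%, 45.3% and 14.8%.

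The highest C/EBPβ score of the windows lay on a leading Pck1 region in each condition. The region at 172978128 had C/EBPβ scores of 13.95 at 6am, 13.22 at 6pm and 10.99 under prednisolone. The region at 172949956 had 12.66, 13.33 and 9.55. All 6 of these scores were within the first 4.80% of their lists. The Pck1 regions at 172972300 and 172969176 had C/EBPβ scores of 3.22 and 2.41 at 6am and 4.75 and 3.68 at 6pm, and neither held a C/EBPβ peak after prednisolone.

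At G6pc the strongest C/EBPβ peak did not lie on the strongest GR region. It lay on the region at 101240347, with 10.57, 11.14 and 10.34, each within the first 4.58% of its list. The region at 101228710, which led the GRdim lists, followed with 8.48, 7.50 and 6.25. The leading WT region at 101223617 overlapped a C/EBPβ peak of 4.34, 5.65 and 3.66, whose centre lay 155, 146 and 141 bp from that of the region. With centres required within 100 bp it held none. The region at 101222104, which no GRdim list held, overlapped no C/EBPβ peak in any condition, and neither did the prednisolone region of Ppargc1a.

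C/EBPβ formed 11, 12 and 10 regions in the Pck1, G6pc and Ppargc1a windows, of which 8, 8 and 2 overlapped a GR region of any list, against 41.1% of all 30780 C/EBPβ regions. The exact intervals of these shares (39.0 to 94.0, 34.9 to 90.1 and 2.52 to 55.6) all held that value. The 2 at Ppargc1a were those of 6pm GR, with C/EBPβ scores of 4.62, 6.39 and 3.34 at 51902822 and of 6.31, 7.91 and 8.33 at 51919104. The highest-scoring C/EBPβ region without GR was also at Ppargc1a, chr5:51937001-51937212, with 6.31 at 6am, 6.20 at 6pm and 8.76 after prednisolone. At G6pc the highest-scoring peaks without GR were chr11:101213842-101214054 at 6am and 6pm, with 4.3 and 3.79, and chr11:101222772-101222976 after prednisolone, with 3.63. At Pck1 they were chr2:172985159-172985371 at 6am and 6pm, with 3.90 and 3.45, and chr2:172932761-172932965 after prednisolone, with 3.66.

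ChIP-exo borders are features of 10 bp on 1 strand at which the exonuclease stopped. Libraries held 31.6 to 55.7 M tags (M for mega), the smallest being GRdim at 6am, and borders with fewer than 3 tags were listed in none. In WT, 10 of 11 listed regions at 6am, 12 of 20 at 6pm and 8 of 8 after prednisolone held borders of both strands within 100 bp of the region's centre. Over all regions of those lists the shares were 86.1%, 45.4% and 79.3%. In GRdim the counts were 5 of 7, 8 of 14 and 6 of 7, against 43.9%, 52.7% and 81.3%.

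The leading G6pc region had strong borders in WT and few, weak ones in GRdim. Border strength is given as RPM, the authors' tag count scaled to the library total. In WT it had 115 tags at 6am, 150 at 6pm and 55 after prednisolone, which are 2.06 RPM (Poisson 95% interval 1.70 to 2.48), 3.48 RPM (2.94 to 4.08) and 1.01 RPM (0.758 to 1.31). In GRdim no border was listed at 6am, the strongest at 6pm had 20 tags or 0.457 RPM (0.279 to 0.705), and 1 border of 8 tags or 0.177 RPM (0.0765 to 0.349) was listed after prednisolone. The intervals of the genotypes did not overlap at 6pm or after prednisolone. The number of listed borders was 14, 13 and 13 in WT and 0, 7 and 1 in GRdim. The whole border lists were also shorter in GRdim, with 14391, 35658 and 35220 borders against 66573, 54636 and 49189 in WT. The GRdim list of 6am held no border below 4 tags.

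The neighbouring G6pc region at 101222104 held borders in WT alone. Its strongest border had 43 tags at 6am, 19 at 6pm and 74 after prednisolone, or 0.772 (0.559 to 1.04), 0.441 (0.265 to 0.688) and 1.35 (1.06 to 1.70) RPM. The prednisolone value was above both untreated values without overlap of the intervals, while at the leading region 1.51 kb away it was the lowest of the WT values. None of the 3 GRdim libraries listed a border there. This was common at window regions without a GRdim peak in that condition. Of these, 2 of 16 at 6am, 2 of 9 at 6pm and 7 of 16 after prednisolone held any GRdim border.

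At the leading Pck1 region both genotypes had borders in every condition. In WT the strongest border had 0.754 RPM at 6am (0.543 to 1.02), 2.30 at 6pm (1.87 to 2.80) and 0.622 after prednisolone (0.431 to 0.869). In GRdim it had 0.411 (0.219 to 0.703), 0.822 (0.576 to 1.14) and 0.399 (0.236 to 0.630). The intervals of the genotypes overlapped at 6am and after prednisolone and were apart at 6pm. The region at 172978128 gave the same picture, with 0.897, 2.13 and 0.805 in WT and 0.695, 0.730 and 0.576 in GRdim. At 6pm the strongest border of either region lay at a different position in the 2 genotypes. Here and at the G6pc regions, the intervals do not cover the choice of the strongest border. Over all borders matched between the genotypes at GR regions, the median ratio of WT to GRdim at 6pm was 1.91.

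**Figure D2:**
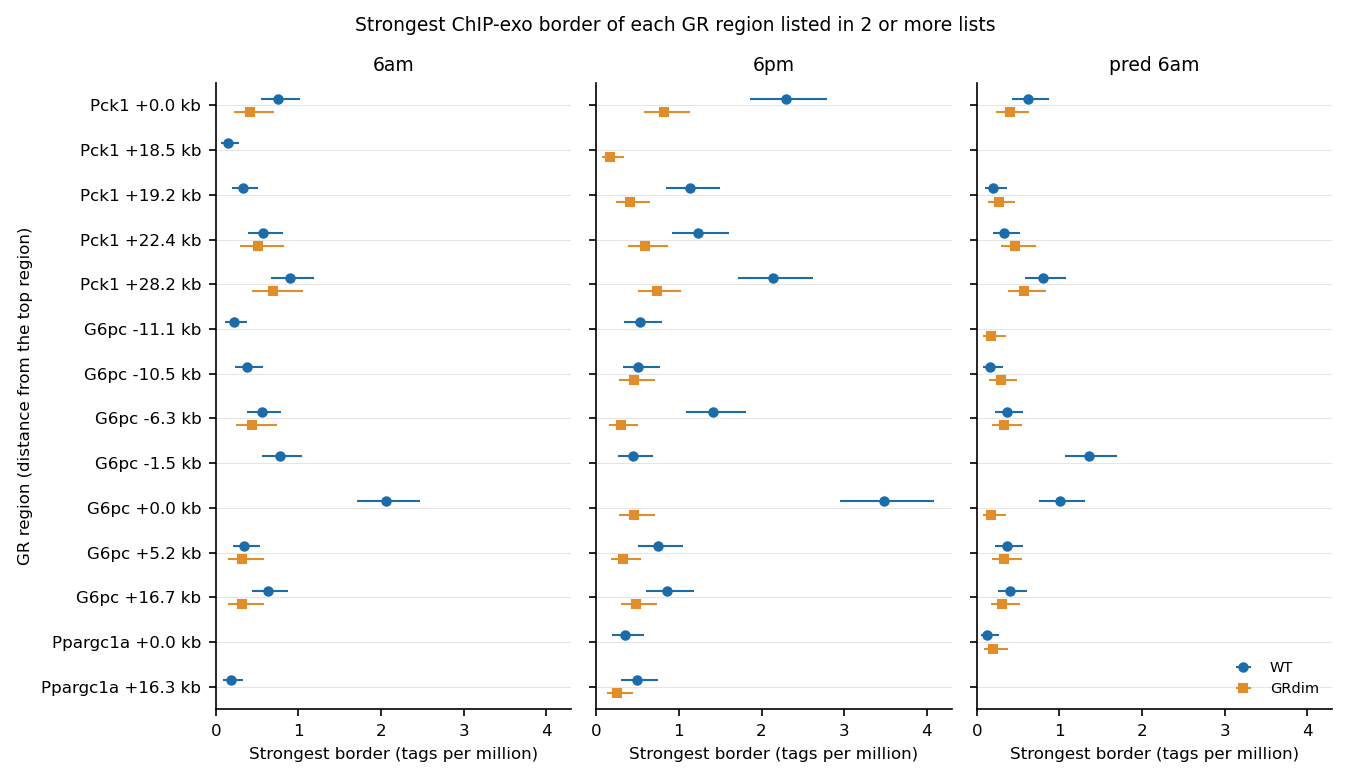
Strongest listed border of each of the 14 GR regions in 2 or more lists. The x axis is RPM, points are 1 pool each and bars are Poisson 95% intervals; a missing point means that no border was listed, and regions are named by their distance from the highest-scoring region of the window. The leading G6pc region has 3.48 RPM in WT and 0.457 in GRdim at 6pm.

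The Ppargc1a region of prednisolone had a clear border set in that condition of WT. It held 8 borders, the strongest with 36 tags or 0.658 RPM (0.461 to 0.911). In WT at 6am it held 1 border of 9 tags and at 6pm 1 of 12 tags, or 0.162 (0.0739 to 0.307) and 0.278 (0.144 to 0.486) RPM. In GRdim 1 border of 10 tags was listed at 6pm and none in the other libraries. The regions of 6pm held at most 2 borders in any library, and none with more than 21 tags.

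**Figure D3:**
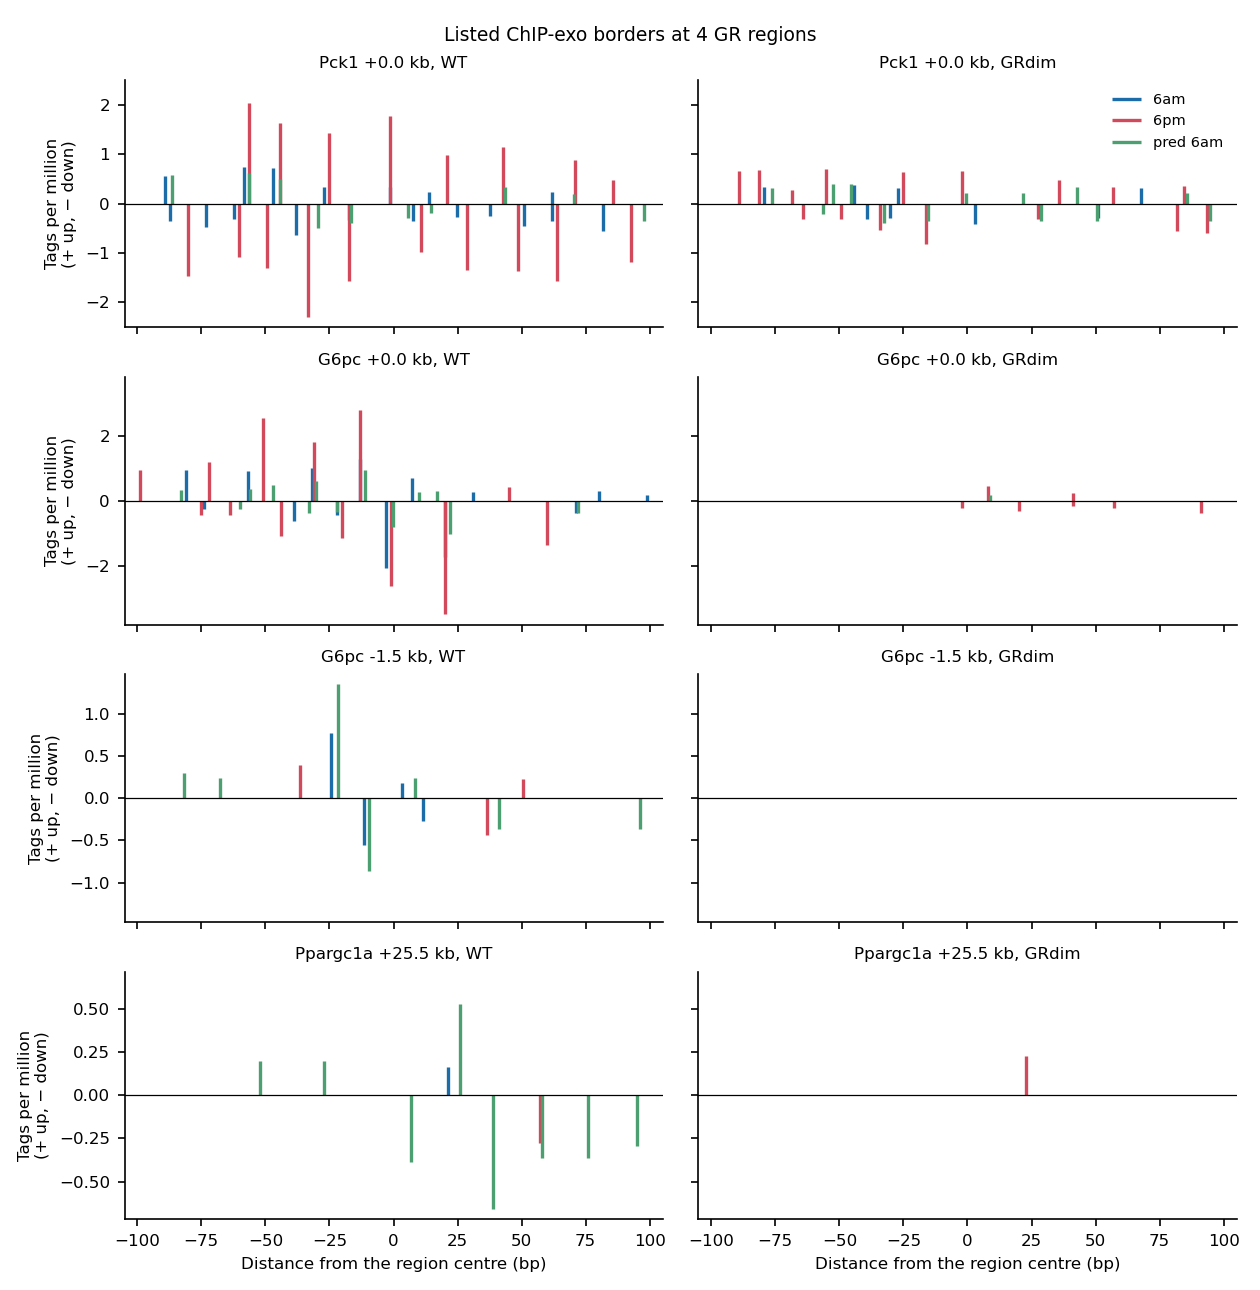
Listed borders around the centres of 4 GR regions in WT (left) and GRdim (right), with plus-strand borders upward and minus-strand borders downward in RPM and colours for the condition. The leading Pck1 region has borders in both genotypes, the G6pc region at -1.5 kb in WT alone, and the Ppargc1a region 8 borders in WT after prednisolone.

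Border pairs, the strongest border of each strand around a region, were counted in fixed distance classes, beside the share over all pairs of that genotype. In WT, 4 of 30 pairs over the 3 conditions lay 10 to 12 bp apart, 1 lay 24 to 26 bp apart and 0 lay 29 to 31 bp apart, where 8.8%, 3.39% and 8.67% of all 14874 WT pairs did. In GRdim the counts were 0, 0 and 1 of 19, where 4.56%, 5.1% and 2.26% of 7922 pairs did. The close WT pairs were at the G6pc region at 101222104 after prednisolone (12 bp, with 74 plus and 47 minus tags), at the leading G6pc region at 6am (10 bp, 72 and 115 tags), at the G6pc region at 101240347 at 6pm (12 bp, 37 and 19 tags) and at the Pck1 region at 172972300 at 6am (12 bp, 26 and 32 tags). At 101222104 the 6am pair lay 13 bp apart, with the same minus-strand border and a plus-strand border shifted by 1 bp. The 6pm pair of that region lay 73 bp apart at other positions, with 17 and 19 tags. The Ppargc1a region of prednisolone had a pair 13 bp apart with 29 and 36 tags.

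At the leading G6pc region the same borders were listed in all 3 WT libraries. The plus-strand border began at 101223707, 101223706 and 101223707 at 6am, 6pm and under prednisolone. A minus-strand border at 101223717 or 101223718 had 115, 112 and 44 tags, and another at 101223739 or 101223740 had 95, 150 and 55 tags. The first of these was the stronger at 6am and the second in the other conditions, with overlapping intervals in all 3. These were 1.70 to 2.48 and 1.38 to 2.08 RPM at 6am, and 2.14 to 3.13 and 2.94 to 4.08 at 6pm. Under prednisolone they were 0.585 to 1.08 and 0.758 to 1.31. The pair distances of 10, 33 and 33 bp therefore differ by which of the same borders had more tags. In GRdim at 6pm both minus-strand borders were listed as well, with 10 and 14 tags. The strongest GRdim borders were a plus-strand one of 20 tags at 101223727, which WT at 6am also listed with 39 tags, and a minus-strand one of 16 tags at 101223810, 83 bp from it.

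At the Pck1 regions the pairs had no common distance. At the leading region they lay 20, 23 and 27 bp apart in WT at 6am, 6pm and under prednisolone and 47, 39 and 20 bp apart in GRdim. At 6pm both genotypes listed the borders of both pairs within 2 bp. The minus-strand border at 172950027 had 99 tags in WT and 23 in GRdim, and that at 172950043 had 68 and 36. The 6pm distances therefore differ by which of the same borders had more tags. The GRdim prednisolone pair rests on a tie of plus-strand borders at 18 tags. At 172972300 the distances were 12, 7 and 8 bp in WT and 29, 27 and 15 bp in GRdim. At 172978128 they were 83, 69 and -24 bp in WT, the negative value meaning that the minus-strand border came first, and 106, 22 and 63 bp in GRdim. At 6pm the borders of the WT and the GRdim pair were again listed in both genotypes at 172972300 and at 172978128. At G6pc, the pairs of 6pm lay 34 bp apart in GRdim and 61 bp in WT at 101217300, and 44 and 12 bp apart at 101240347. At 101228710 the distances at 6am, 6pm and under prednisolone were -26, -64 and 6 bp in WT and 61, -106 and -179 bp in GRdim.

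Borders at the same strand and position, within 2 bp, could be compared between the genotypes at Pck1 and G6pc, and none was matched at Ppargc1a. At 6pm 26 borders were matched, and 23 had a higher RPM in WT with the exact interval of the ratio above 1, against 48.6% of 5882 matched borders at all GR regions. At 6am 1 of 7 did, against 10.5%, and after prednisolone 0 of 10, against 19.2%. On that scale no matched border of the windows had an interval below 1. The 26 of 6pm came from 108 WT and 77 GRdim borders at the regions, and 21 of them lay at Pck1. Several of these share 1 region, so they are not independent. An interval clears 1 more readily where tags are many, so the share over all borders is not like for like. The 6pm count depends on the scale: relative to the tags of the listed nuclear (non-mitochondrial) borders, 2 of 26 were above 1, both at the leading G6pc region, and 1 at Pck1 and 1 at G6pc were below 1. On the same scale none was above 1 at 6am or after prednisolone, against 1.78% and 9.2% of all matched borders. At 6am 2 of 5 Pck1 borders and 2 of 2 G6pc borders were below 1, and under prednisolone 3 of 7 and 1 of 3 were. The share of all matched borders below 1 on this scale was not counted. The rescaling lowers every ratio of a condition by the same factor, so no trait of the window borders can be read from this turn. The same rescaling gave 9.23% above 1 over all GR regions at 6pm. That second scale also carries how many borders were listed, since the nuclear borders listed at 6pm held 1.34 M tags in WT and 0.481 M in GRdim.

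The median ratio of WT to GRdim over all matched borders of GR regions was 1.91 at 6pm, 0.873 at 6am and 1.07 after prednisolone, and the window borders were also read against it. The 21 matched Pck1 borders of 6pm had ratios from 1.33 to 4.37 with a median of 2.86, which is 1.5 times the median over all. At the leading G6pc region the border at 101223739 had 150 tags in WT and 14 in GRdim, a ratio of 10.9 (6.29 to 20.4), or 5.71 times the median over all (3.3 to 10.7). The border at 101223718 had 112 and 10 tags, a ratio of 11.4 (5.96 to 24.4). On the scale of listed tags these ratios were 3.85 (2.23 to 7.22) and 4.03 (2.11 to 8.63). The other 3 matched G6pc borders of 6pm had ratios of 0.864 to 2.20. Each ratio compares 1 library with 1 library.

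**Figure D4:**
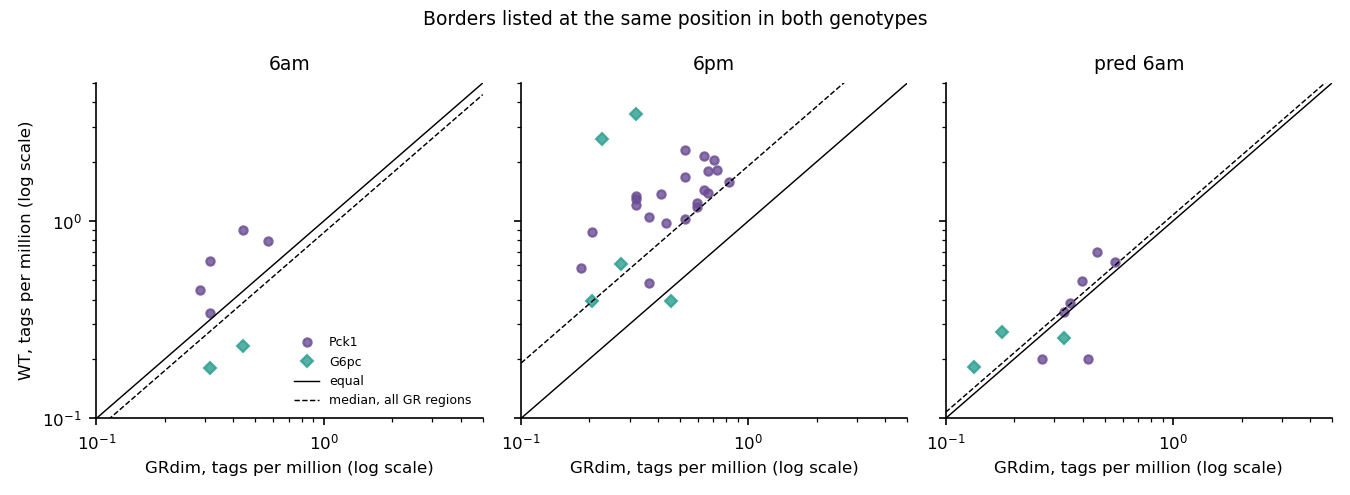
Borders listed at the same position in both genotypes, with RPM in GRdim on the x axis and in WT on the y axis, both logarithmic. The solid line marks equal values and the dashed line the median ratio over all matched borders of GR regions; at 6pm 2 G6pc borders lie farthest above both lines, with ratios of 10.9 and 11.4.

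Of the Pck1 borders at 6am, 6pm and under prednisolone, 54 of 157, 55 of 74 and 27 of 48 in WT lay at GR regions. In GRdim 21 of 24, 47 of 102 and 32 of 93 did. Except in WT at 6pm and GRdim at 6am, most of those away from GR regions lay in 1 stretch. It is the 7.71 kb between the centres of chr2:172978128-172978372 and chr2:172985859-172986058. This stretch was singled out after its values were seen. More than 100 bp from a region's centre it held 89 borders in WT at 6am, 6 at 6pm and 16 under prednisolone, and 1, 47 and 57 in GRdim. They were weak, with 7 to 25 tags each and a median of 12 tags at 6am in WT, and lay on both strands, 48 plus and 41 minus in that library. The longest list, WT at 6am with 65707 nuclear borders, held the most in the stretch, and the shortest, GRdim at 6am with 13552, the fewest. Between these the order differed from that of length, since WT at 6pm listed 53788 nuclear borders and GRdim after prednisolone 34348. Over the nuclear genome 26.1%, 22.6% and 29.1% of the WT borders and 21.3%, 20.6% and 23.9% of the GRdim borders lay that far from a GR region. Whether these borders reflect GR was not tested.

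**Figure D5:**
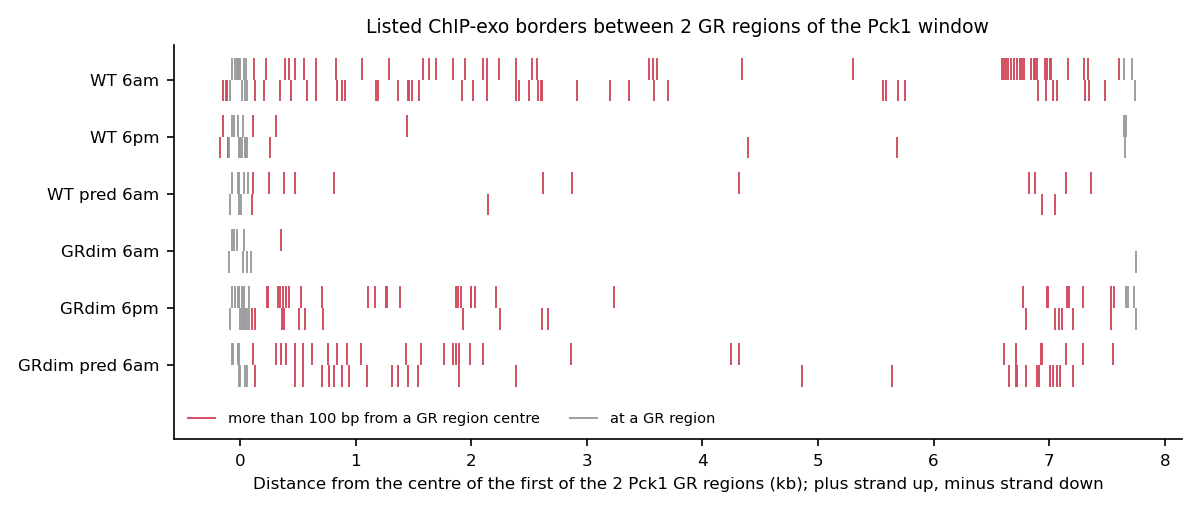
Listed borders between 2 GR regions of the Pck1 window in the 6 libraries, by distance in kb from the first region; plus-strand borders point up and minus-strand borders down, and red marks those more than 100 bp from the centre of a GR region. Between the centres of the regions WT at 6am has 89 red borders and WT at 6pm has 6; the few red ones left of 0 lie before the first region's centre and are not counted.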

How the data were processed

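Both replicates of a group were pooled into 1 list, per the labels. Per the submitters' processing notes, Bowtie and HOMER were used with mm9; what each tool did, its version and the peak threshold are not stated there. The ChIP-seq files hold the authors' score per peak of 200 bp. The ChIP-exo files hold the deposited count of tags per border, the authors' RPM value (tags scaled to the library total), per the file headers, and a deposited height signal that was not used. Other deposited columns were not used either. The 2 RNA polymerase II and 12 input samples were not analysed here.

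From these files peaks were assigned to windows by their centre, merged where they overlapped by at least 1 bp, and joined to borders within 100 bp of the region's centre, taken as the mean of the centres of its peaks. Library size was the sum of tags divided by the sum of RPM. Shares have exact binomial, tag values exact Poisson and ratios exact conditional 95% intervals, for counting only; how deep the ChIP-seq libraries were is unknown. GR regions in 2 or more lists were named, with the highest-scoring one in 1 list per window, and the highest-scoring C/EBPβ peaks without GR. The Ppargc1a region of prednisolone was added to these after its values were seen. The members and lists were chosen with earlier results of these data known. A planned list of other gluconeogenesis genes needs gene positions in mm9, which were not used here.

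The code was tested on simulated data. Promoters and gene order are those of RefSeq in GRCm38.p6; all 3 genes matched by symbol. Computation used Python 3.11.15 with scipy 1.17.1, pandas 2.3.3 and numpy 2.4.6, and plots matplotlib 3.10.9.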

Additional observations from a re-analysis of the deposited data

How the results depend on the processing

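Of 100 values recomputed for 29 counts and shares, 80 stayed within 1.5 times the count, or within the interval of the share, and 20 did not. The cause of these was not tested beyond what fewer peaks or borders give by construction. For peaks of 200 bp, centres within 100 bp and an overlap of at least 50% of the peak are the same rule. Each result computed under both had equal values, and both values count among the 80 that stayed. The 80 therefore include repeats and hold fewer distinct alternatives. In the higher-scoring 50% of each list, the GR peaks at Ppargc1a fell from 6 to 2, its regions in both genotypes from 2 to 0, and the Pck1 regions in WT alone from 5 to 1. With GR lists of equal length (3183 peaks) these became 1, 0 and 0, the regions in WT alone became 1 at G6pc and 1 at Ppargc1a, and the share of WT GR peaks of 6pm with C/EBPβ rose from 80% to 100%. With windows widened by 25 kb on each side, G6pc had 4 regions in WT alone. With borders of at least 20 tags, 18 WT and 4 GRdim regions (from 30 and 19) had both strands, and GRdim had 0 pairs 29 to 31 bp apart. Borders within 60 bp and the closest opposite borders each gave 0 WT pairs 24 to 26 bp apart and 1 GRdim pair 10 to 12 bp apart, and the closest borders gave 1 GRdim pair 24 to 26 bp apart. Scaled to the tags of the listed nuclear borders, matched borders with more in WT numbered 0 at 6am and 2 at 6pm, and some at 6am and under prednisolone turned towards GRdim. That scale lowers every ratio of WT to GRdim. No paired analysis was possible because each list pools its replicates, and for the same reason no replicate could be left out.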
